A study of Mus musculus with 6 samples.

Results

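Fas, its ligand Fasl and 7 genes that pass on, block or amplify the death signal (Fadd, Casp8, Cflar, Bid, Bcl2, Bcl2l11 and Tnfrsf10b) were examined in the kidneys of LPR mice and MRL mice. The members were all non-control probes whose array gene name was one of these 9 symbols, with each probe kept separate. They came to 22 probes of 9 genes, out of 56605 probes under 36870 gene names. TA was performed on whole kidneys of female mice at 6 months of age, with 1 Agilent single-colour array for each of 3 MRL mice (MRL/MpJ, the control strain) and 3 LPR mice (MRL/MpJ-Fas lpr/lpr, the lupus nephritis model). Both groups share the MRL/MpJ background, which itself is prone to mild autoimmunity with age, and LPR mice carry the Fas mutation in every cell, not in 1 cell type. No treatment was given, and the mice were kept under specific pathogen-free conditions.

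Fas is a death receptor on the cell surface. When it is bound by Fas ligand, which activated T cells and natural killer cells carry, the adaptor FADD and the initiator caspase-8 gather on the receptor and start apoptosis. In some cells the signal passes through BID to the mitochondria, where the BCL2 family decides on survival or death. In the lpr allele an early transposon of retroviral type lies within an intron of Fas and disrupts the full-length transcript, and mice with this allele accumulate unusual T cells that lack both CD4 and CD8. Fas is also made by kidney tubule cells, and Fas signalling has long been studied in kidney injury.

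The array read Fas with 2 probes and Fasl with 1. The first 30 bases of each are shown because the receptor and its ligand carry the results below. They are written 5′ to 3′ in lower case as in the array files, with the positions of the whole 60-base probes on mouse build mm9.
Fas A_55_P2091676, transcript variant 1 (NM_007987), chr19:34402164-34402223, plus strand: gaagaccttccattgatggacagttctttt
Fas A_52_P73385, transcript variant 2 (NM_001146708), chr19:34383733-34383792, plus strand: ggagagactctttaaaatgaaaacacaata
Fasl A_55_P2016114 (NM_010177), chr1:163711056-163711115, minus strand: gcaatgatgtctgtgtgtttgtatgtatga
The starts of the Fas probes were 18431 bases apart, and the probe of variant 2 is the upstream one. All 3 probes had a GC content of 35%. The exon or untranslated region under each probe, and the place of the lpr insertion relative to the Fas probes, were not determined here.

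Levels are given as relative signals, that is, the log2 intensity minus the 75th percentile of the same array, so that 0 is that percentile and lower values are dimmer. Changes are LPR minus MRL on the log2 scale. Levels of different probes depend on the probe and were not set against each other, other than to choose 1 probe for a gene and the markers to name. They were also added in the summed signals of marker lists, where the brightest probes weigh most and can hide changes of dimmer ones. Testing needed a signal well above background on 3 or more of the 6 arrays. Of the 22 member probes 21 were tested and 17 were above background on all 6 arrays. The arrays had 69.6% to 73.5% of spots above background, and the correlations were 0.990 to 0.993 within a group and 0.961 to 0.971 between the groups. The names of the arrays end in 2 numbers, of which the first is here called the slide position. It was 1 for MRL 1 to 3 and LPR 1, and 2 for LPR 2 and LPR 3. What this number stands for was not determined, and the last number was not used. No MRL array had position 2, so results that take slide position into account compare LPR 1 alone with the MRL mice. The number of arrays limits the precision. With 3 against 3 mice an exact test cannot go below a p of 0.1, so the p-values are those of limma over all tested probes.

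The ligand had the largest measured change of the members. Fasl was higher in the kidneys of LPR mice by a measured 9.68-fold, with only 1 MRL mouse well above background. With normexp background correction, which draws dim signals together, its log2 change fell from 3.27 to 1.42. The brighter Fas probe and all probes of the downstream genes did not pass the test. Among the 21 tested member probes 2 were higher in LPR mice, beside 6.54% of all tested probes. Both were well above background in the LPR mice and in at most 1 MRL mouse. None was lower by limma, beside 6.07% of all tested probes. At an unadjusted p under 0.05, limma gave 1 lower probe (Cflar A_55_P1983468) and the test of the study's methods, which takes each probe alone, gave 0. The groups did not overlap in 2 member probes that were higher (11.1% of all probes) and 1 that was lower (26.6%). The median change was -0.06 over the member probes and -0.13 over all tested probes, and the median size of the change, whatever its sign, was 0.16 and 0.23.

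**Figure D1:**
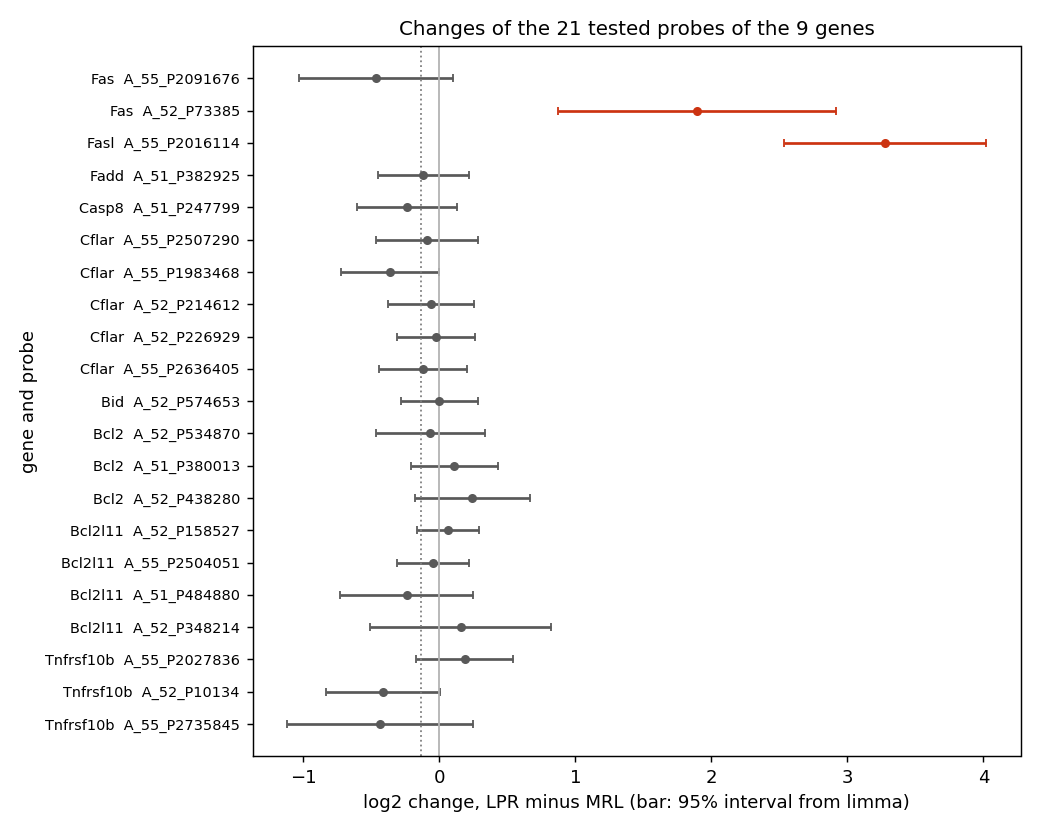
Changes of the 21 tested member probes. Each point is the log2 change, LPR minus MRL, with its 95% interval from limma, and the dotted line is the median of all tested probes at -0.13. The probe of Fasl at 3.27 and that of Fas variant 2 at 1.89 (red) passed the test, and the other 19 (grey) lie between -0.47 and 0.24.

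Fas carries the lpr mutation, so it was read first. The relative signals of the variant 1 probe were -0.35, -0.27 and -0.04 in MRL mice and -0.47, -1.23 and -0.36 in LPR mice. All 3 LPR mice were below all MRL mice, but LPR 1 and LPR 3 lay close to MRL 1, and LPR 2 was the lowest by far. The means were -0.22 ± 0.16 in MRL mice and -0.69 ± 0.47 in LPR mice (SD, n = 3 each). The change of -0.47 (SE 0.24, 95% interval -1.03 to 0.10) did not pass the test (limma adjusted p = 0.235). It was -0.20 without LPR 2. LPR 2 was the lowest of the 6 arrays in 23.8% of the member probes and in 24.0% of all tested probes. No LPR mouse lacked signal at this probe, which was above background on all 6 arrays.

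The other Fas probe gave a different picture. Its relative signals were -7.93, -6.30 and -7.58 in MRL mice, in none of which it was well above background. In LPR mice they were -4.95, -5.78 and -5.40, above background in all 3. All LPR mice were above all MRL mice. In raw intensity the MRL mice gave 2.97 to 8.98 units and the LPR mice 13.2 to 30.02 units, so the probe was dim throughout. The measured change was 1.89 (SE 0.43, limma adjusted p = 0.0337). Set against the lowest signal that counted as above background on each MRL array, the LPR mice were 1.47-fold higher. That lowest signal does not cap a signal that was not above background, so 1.47-fold is not a lower limit. This probe met the filter only through the LPR mice, so its call is no support for a change of Fas. With a floor at the detection limit the change was 0.56 (adjusted p = 0.112) and with normexp background correction 0.18 (adjusted p = 0.188). The call of the dim probe was lost without MRL 1 (1.56, adjusted p = 0.0868) and without MRL 3 (1.74, adjusted p = 0.0941), and with the slide position in the fit (2.32, adjusted p = 0.112). Without any one LPR mouse the probe was above background on too few arrays to be tested.

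Fasl, the ligand of Fas, was read by 1 probe. Its relative signals were -5.53, -5.85 and -4.56 in MRL mice, where only MRL 3 was well above background. They were -2.08, -2.13 and -1.91 in LPR mice. The LPR mice lay together and far above every MRL mouse. The means were -5.31 ± 0.67 in MRL mice and -2.04 ± 0.12 in LPR mice (SD, n = 3 each). The change was 3.27 (SE 0.31, 95% interval 2.53 to 4.02, limma adjusted p = 0.000836), and all 3 LPR mice showed its direction. The raw intensity was 12.2 to 29.6 units in MRL mice and 167 to 220 units in LPR mice. The 3 LPR mice alone were enough to meet the filter, with MRL 3 above background besides. Passing the filter thus depended on the group where Fasl was high. With no filter the limma adjusted p was 0.00358. With the slide position in the fit, and at position 1 alone, the change was 3.23. These are not separate checks, since both compare LPR 1 with the 3 MRL mice. The test at position 1 alone, where LPR 1 is assumed to vary like the MRL mice, did not pass. With normexp background correction, which draws dim signals together, the change was 1.42 (limma adjusted p = 4.29e-06).

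**Figure D2:**
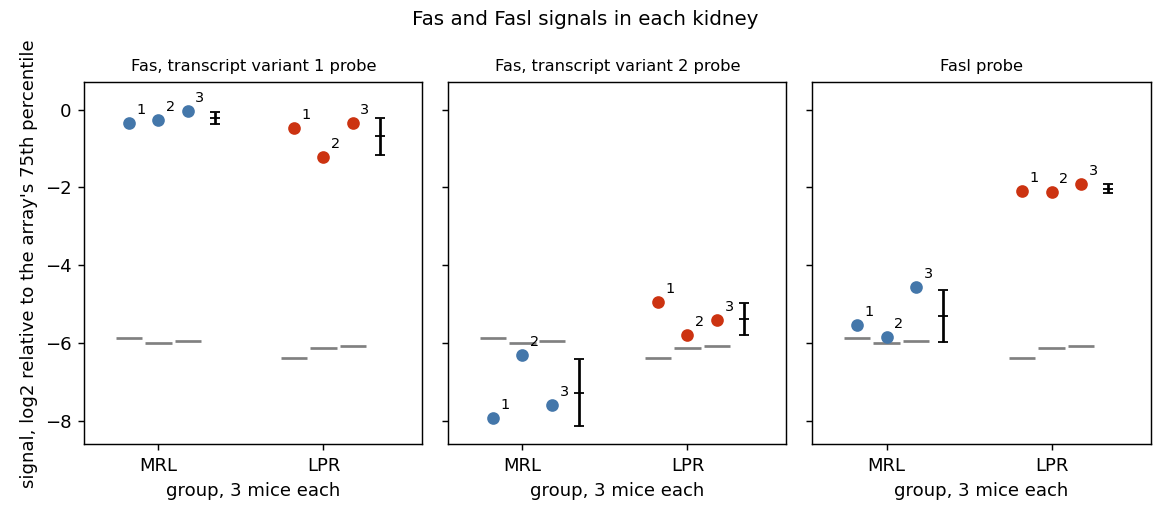
Relative signal of the Fas probes and the Fasl probe in each of the 6 kidneys. Points are mice with their numbers, black bars are the mean and SD of a group (n = 3), and grey dashes mark the lowest signal among the probes well above background on that array. The Fas variant 1 points lie close together except LPR 2 at -1.23, the variant 2 points lie above the dashes only in LPR mice, and the Fasl points of LPR mice sit at -2.13 to -1.91.

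The adaptor and the initiator caspase did not pass the test. The relative signals of Fadd, which links Fas to the caspase, were -0.44, -0.23 and -0.25 in MRL mice and -0.54, -0.18 and -0.56 in LPR mice. The groups overlapped, with a change of -0.12 (95% interval -0.45 to 0.22, limma adjusted p = 0.602). Casp8, the initiator caspase of the death receptors, gave 0.79, 0.45 and 0.41 in MRL mice and 0.44, 0.09 and 0.40 in LPR mice. MRL 1 was the highest and LPR 2 the lowest, and the other 4 lay within 0.40 to 0.45. The change was -0.24 (95% interval -0.61 to 0.13, limma adjusted p = 0.336). These intervals leave out a change of the size of Fasl in either direction.

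Cflar encodes FLIP, which resembles caspase-8 and blocks it at the receptor. It had 5 probes, all tested, and none passed. The changes ran from -0.36 to -0.03. The brightest, A_55_P2507290, gave 2.61, 2.55 and 2.65 in MRL mice and 2.69, 2.18 and 2.67 in LPR mice. Apart from LPR 2 these values differed little, and the change was -0.09 (95% interval -0.47 to 0.29, limma adjusted p = 0.733). The probe of A_55_P1983468, designed on NM_009805, came nearest to the threshold. It gave 1.71, 1.99 and 1.55 in MRL mice and 1.24, 1.36 and 1.57 in LPR mice, so that only LPR 3 reached into the range of the MRL mice. Its change was -0.36 (95% interval -0.72 to -0.001, unadjusted p = 0.0495, limma adjusted p = 0.164). The 5 probes lie at different places of the gene and match different transcripts, so they need not read the same RNA.

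Bid, the BH3-only protein that caspase-8 cuts to pass the signal to the mitochondria, had 2 probes. A_52_P574653 gave 1.40, 1.54 and 1.66 in MRL mice and 1.56, 1.64 and 1.40 in LPR mice. The means were the same to 2 decimals, 1.53 ± 0.13 in MRL mice and 1.53 ± 0.12 in LPR mice (SD, n = 3 each). The 95% interval of the change was -0.29 to 0.28 (limma adjusted p = 0.996). The other probe, A_55_P2719920, designed on the transcript ENSMUST00000125915, was well above background on 0 of 6 arrays and was not tested.

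Bcl2, the founding survival protein of its family, had 3 probes, none of which passed the test. The changes were -0.07 for A_52_P534870, 0.11 for A_51_P380013 and 0.24 for A_52_P438280. The brightest, A_52_P534870, gave 0.88, 0.83 and 0.81 in MRL mice and 1.02, 0.41 and 0.89 in LPR mice. LPR 1 and LPR 3 were above every MRL mouse and LPR 2 below, so the groups overlapped (95% interval -0.47 to 0.33, limma adjusted p = 0.817). The interval was -0.21 to 0.43 for A_51_P380013 and -0.18 to 0.66 for A_52_P438280.

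Bcl2l11 encodes BIM, the BH3-only protein that BCL2 holds in check and that acts with Fas in removing activated lymphocytes. Its 4 probes did not pass, with changes of -0.24 to 0.16. A_52_P158527, the brightest, gave 0.33, 0.25 and 0.37 in MRL mice and 0.37, 0.43 and 0.33 in LPR mice. The values overlapped closely, and the interval of the change was narrow, from -0.17 to 0.29 (limma adjusted p = 0.686). The dimmest, A_52_P348214, was above background in 2 of the MRL mice, and its interval of -0.51 to 0.82 was the widest of the 4.

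Tnfrsf10b encodes the mouse receptor of TRAIL, a death ligand related to Fas ligand. A_55_P2027836, the brightest of its 3 probes, gave -1.59, -2.02 and -1.92 in MRL mice and -1.52, -1.83 and -1.63 in LPR mice. The groups overlapped, and the change was 0.19 (95% interval -0.17 to 0.54, limma adjusted p = 0.437). The dimmer probes ran the other way without passing the test. A_52_P10134 changed by -0.41 (95% interval -0.83 to 0.004, limma adjusted p = 0.169). A_55_P2735845 changed by -0.43 (95% interval -1.12 to 0.25, limma adjusted p = 0.349) and was above background in only 2 of the MRL mice and 1 of the LPR mice.

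The rest of the cell death machinery was read from 6 lists of 60 other genes, each by its brightest tested probe. The array held 58 of them and 55 were tested. In LPR mice 8 were higher, beside 7.12% of all genes read in this way. By limma 0 were lower, beside 5.39% of all genes, with 4 lower at an unadjusted p under 0.05 by limma and 4 by the methods' test, and 0 lower by that test after adjustment. Over all 108 tested probes of these genes 12 were higher and 4 were lower, the latter being dimmer probes of Birc6, Casp8ap2, Diablo and Tnfrsf21 (-0.77 to -0.49). The median change was 0.14 over the 55 genes and -0.12 over all genes. Bcl2a1a and Bcl2a1b had no probe under these names, and Bcl2l10, Hrk and Naip1 were not tested.

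Of the death receptors, their ligands and adaptors, 2 of 22 were higher (Ripk3 and Mlkl). Ripk3, a kinase known for necroptosis, a lytic form of cell death, gave -2.82, -2.39 and -2.72 in MRL mice and -1.14, -1.29 and -1.22 in LPR mice. Mlkl, a protein that RIPK3 activates to open the membrane, gave -3.47, -3.23 and -3.18 in MRL mice and -1.82, -2.20 and -1.91 in LPR mice. In neither did the groups overlap. Ripk3 was 2.68-fold higher (change 1.42, SE 0.14, limma adjusted p = 0.000902) and Mlkl 2.49-fold higher (change 1.32, SE 0.14, limma adjusted p = 0.00158, and 0.83 with normexp). Ripk1, the kinase upstream of RIPK3, changed by 0.21 without passing (adjusted p = 0.298). The other 20 did not pass by their brightest probe. In Tnf, a death ligand, and its receptors Tnfrsf1a and Tnfrsf1b, singled out after their values were seen, a dimmer probe did. Tnf changed by 0.16 by the brightest probe and by 2.95 by A_51_P385099 (adjusted p = 7.7e-05), which was above background in 1 of the MRL mice and gave 1.01 with normexp. Tnfrsf1a changed by 0.33 by the brightest probe and by 0.39 by A_51_P106047 (adjusted p = 0.0481). Tnfrsf1b changed by -0.14 by the brightest probe and by 2.72 by A_52_P228621 (limma adjusted p = 7.45e-05), which gave 1.52 with normexp. The brightest probe of Tnfrsf1b was designed on AK170464 and A_52_P228621 on NM_011610, at different places, so they need not read the same RNA.

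Within the BCL2 family, the largest rises were in the A1 survival proteins, which haematopoietic cells make. Bcl2a1d gave -1.79, -1.49 and -0.49 in MRL mice and 2.81, 2.71 and 2.67 in LPR mice. Bcl2a1c gave -6.23, -5.58 and -4.73 in MRL mice, above background in 2 of them, and -1.26, -1.50 and -1.34 in LPR mice. As with Fasl, MRL 3 was the highest of the MRL mice in both. Bcl2a1d was 15.9-fold higher (change 3.99, SE 0.31, limma adjusted p = 0.000337) and Bcl2a1c was higher by a measured change of 4.15 (SE 0.35, limma adjusted p = 0.00045). The MRL 1 signal of Bcl2a1c was not well above background, and with normexp the change was 2.12 (adjusted p = 2.91e-07). The copies of this gene are near identical, so which copy each probe read is uncertain. These were 2 of the 5 tested survival proteins besides BCL2.

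Among the pore formers, 1 of 3 was higher. Bak1, which makes pores in the outer mitochondrial membrane, gave 0.39, 0.55 and 0.37 in MRL mice and 1.23, 1.38 and 1.29 in LPR mice, a 1.82-fold difference without overlap (change 0.86, SE 0.11, limma adjusted p = 0.00288). Of the 5 tested BH3-only proteins besides BID and BIM, Bbc3, which encodes PUMA, was higher (change 0.62, SE 0.16, limma adjusted p = 0.0471). The call of Bbc3 was lost in 12 of 21 alternatives, quantile scaling (0.62) among them. It was lost without MRL 1, MRL 2, MRL 3, LPR 2 or LPR 3, with changes of 0.50 to 0.71.

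In the IAP family of caspase inhibitors 2 of 7 were higher. Naip2, which senses bacterial proteins for the inflammasome, gave -2.90, -3.34 and -3.73 in MRL mice and -1.20, -1.66 and -1.15 in LPR mice. The groups were well apart, and the signal was 3.97-fold higher (change 1.99, SE 0.24, limma adjusted p = 0.00245, and 1.31 with normexp). Birc3, which encodes cIAP2, was 1.59-fold higher (change 0.67, SE 0.15, limma adjusted p = 0.0324). For Birc3 the call was lost in 11 of 21 alternatives. Among these were the fits without MRL 1, MRL 2, MRL 3, LPR 1 or LPR 3, with changes of 0.56 to 0.70. None of the 13 genes of the apoptosome and the executioner caspases passed, with changes of -0.43 to 0.49. At an unadjusted p under 0.05, limma gave 2 higher and 2 lower among them, and the methods' test 2 higher and 3 lower. At slide position 1 alone, where the LPR group is LPR 1 only and is assumed to vary like the MRL mice, Bak1 (0.79, adjusted p = 0.0667), Bbc3 (0.39, adjusted p = 0.302), Naip2 (2.13, adjusted p = 0.0546) and Birc3 (0.75, adjusted p = 0.057) did not pass.

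**Figure D3:**
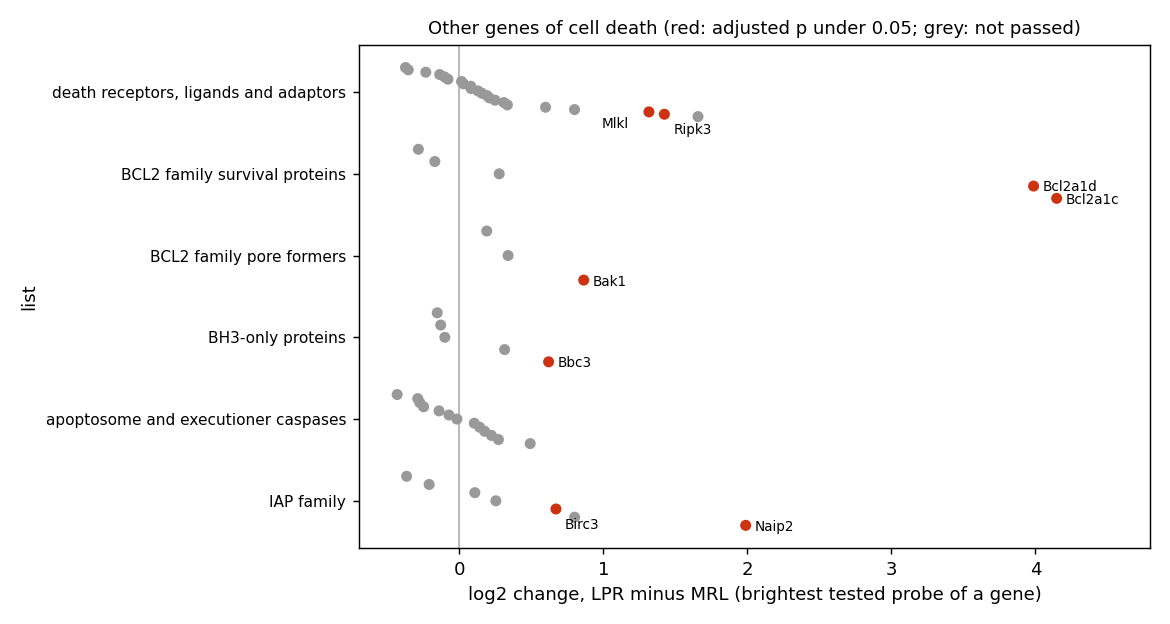
Changes of the 55 other cell death genes by list. Each point is the log2 change, LPR minus MRL, of the brightest tested probe of a gene, and red points passed the test. The 8 named genes lie at 0.62 to 4.15, and the grey point furthest to the right, Tnfrsf11b at 1.66, did not pass (adjusted p = 0.0764).

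Whole kidney holds many cell types, and more cells of a type cannot be told apart from more RNA per cell. Marker genes were therefore read beside the members. Of the T cell markers 8 of 10 were higher, with a median change of 2.73. Their summed linear signal, in units of the 75th percentile of each array, was 4.87 to 5.71 in MRL mice and 16.9 to 20.0 in LPR mice. Of the markers of cytotoxic and natural killer cells 5 of 6 tested were higher, with a median of 2.54, and the sum was 0.516 to 0.812 in MRL mice and 5.16 to 5.82 in LPR mice. Gzmb was above background in none of the MRL mice, and Klrb1c was not tested. The part of these cells in the difference of Fasl was not tested.

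By the brightest tested probe of each gene, the members of these lists did not all move alike. The T cell markers of the highest mean signal, a choice for naming that says nothing of transcript amounts, were Cd247, a chain of the T cell receptor complex, and Cd4, the co-receptor of helper T cells. Cd247 changed by 0.17 without passing (limma adjusted p = 0.459), and Cd4 was 1.45-fold higher (change 0.53, adjusted p = 0.0356). Both genes had 3 tested probes, and only the brightest was read here. The cytotoxic markers chosen in this way were Nkg7, a granule protein, and Gzma, a granule protease. Nkg7 changed by 4.42 (95% interval 3.95 to 4.89) and Gzma by 2.54 (95% interval 1.89 to 3.18). The CD8 chains were named after their values were seen. Cd8b1 was 3.81-fold higher (change 1.93, limma adjusted p = 0.000939). Cd8a changed by 0.03 without passing (limma adjusted p = 0.904), by the brighter of its 2 tested probes. The other Cd8a probe was not read here. The interval of Fasl, 2.53 to 4.02, overlapped those of Nkg7 and Gzma. Of the other tested cytotoxic and natural killer markers, Gzmb (3.85 to 4.37) and Klrk1 (2.31 to 2.80) overlapped it too. The intervals of Prf1 (0.27 to 0.75) and Ncr1 (0.17 to 1.45) lay below that of Fasl.

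**Figure D4:**
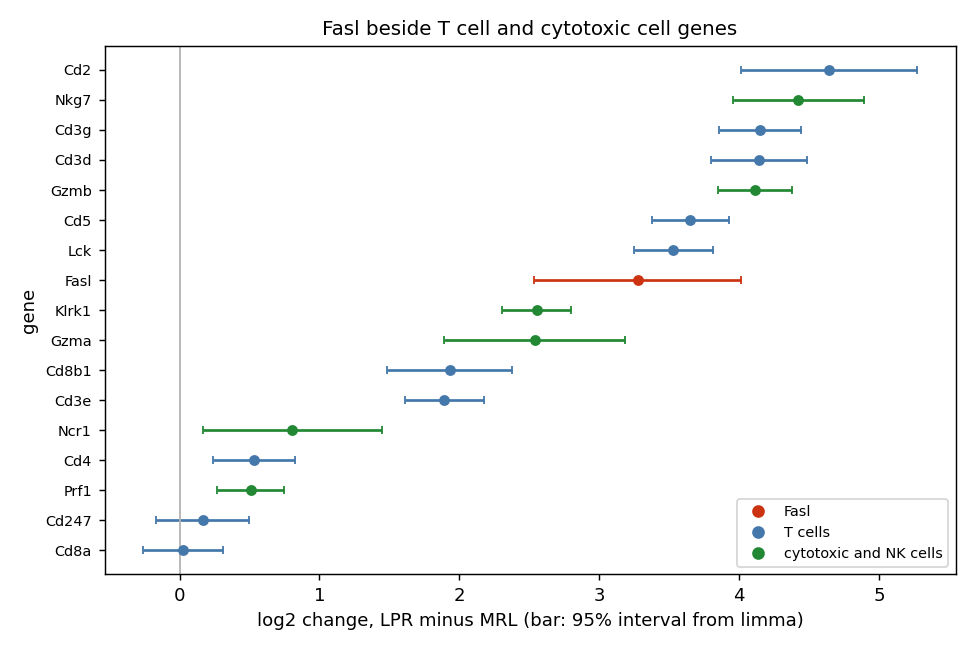
Fasl beside the tested markers of T cells and of cytotoxic and natural killer cells. Points are log2 changes, LPR minus MRL, of the brightest tested probe of each gene, with 95% intervals from limma, ordered by size. Fasl at 3.27 lies among the markers, which run from Cd8a at 0.03 to Cd2 at 4.64.

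Markers of other leukocytes were read in the same way. Of the B cell markers 3 of 5 rose (sum 0.666 to 0.874 in MRL mice and 3.54 to 4.77 in LPR mice), with Cd79b, a chain of the B cell receptor, at 2.83. The 2 that did not pass changed by -0.70 (limma adjusted p = 0.0503) and -0.36 (adjusted p = 0.229). Of the macrophage markers 4 of 5 rose (26.6 to 34.3 against 48.4 to 51.9). The genes chosen were Csf1r, the receptor of the growth factor CSF-1, at 0.55 and Itgam, an integrin chain, at -0.08, of which Itgam did not pass. The tissue label was borne out by the tubule markers, with a sum of 753 to 793 in MRL mice and 605 to 658 in LPR mice. Among 7 of them 0 were higher and 1 was lower. Umod, the most abundant urinary protein, changed by -0.20 and Cdh16, a kidney cadherin, by -0.25, neither of which passed. The podocyte sum was 16.0 to 18.5 and 17.4 to 22.4, and none of 3 passed (Podxl 0.09). The endothelial sum was 15.6 to 16.8 and 11.3 to 13.4, with 1 of 4 lower (Kdr -0.57, adjusted p = 0.0327) and Emcn at -0.37 without passing. Of these small marker changes, that of Cd4 lost its call without any one mouse (0.44 to 0.60), that of Csf1r without MRL 2, MRL 3 or any LPR mouse (0.48 to 0.61), and that of Kdr without any MRL mouse, LPR 1 or LPR 3 (-0.63 to -0.51).

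Other probes were ranked by how closely their 6 values followed those of a member, as the root mean square difference of the values after the mean of each probe was subtracted. Nearest to the brightest probe of Fas were Abca8b (0.05), Selenot (0.05) and Npm2 (0.06). Each had LPR 2 as its lowest array, as Fas had, which follows from the ranking. Nearest to Fasl were Cd48 (0.10), a surface protein of leukocytes, Pik3r5 (0.14), a regulatory subunit of a leukocyte kinase, and Evi2a (0.15). Cd48 gave -4.24, -4.33 and -3.19 in MRL mice and -0.62, -0.60 and -0.63 in LPR mice, so that, as with Fasl, MRL 3 was the highest MRL mouse and the LPR mice lay together. The changes were 3.31 for Cd48, 3.28 for Pik3r5 (1.95 with normexp) and 3.23 for Evi2a. These are descriptions over 6 arrays, drawn from 39916 tested probes, and carry no p. Shared high or low arrays follow from how the probes were picked.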

How the data were processed

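Kidney RNA of 3 MRL and 3 LPR mice was measured, 1 array per mouse. TRIzol is named for the isolation in the paper and the RNeasy Mini Kit in the labels. The authors deposited the intensity of every spot from Agilent Feature Extraction 12.0.3.1, background-subtracted and detrended within the array but not normalized between arrays. Their series values, which divide these intensities by each array's 75th percentile, served as an alternative. Depth does not apply to arrays. The 75th percentile of the intensity was 700 to 930 units and no spot was saturated.

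Here control and outlier spots (73 to 90 per array) were left out, log2 was taken, each array was shifted by its 75th percentile, and spots of 1 probe were averaged. Of 59305 non-control spots, 56605 probes remained, of which 39916 were above background on at least 3 arrays and were tested; 8 more lacked a value on some array. The test was that of limma (version 3.58.1, R 4.3.3), adjusted by Benjamini-Hochberg over every tested probe (threshold 0.05). Only the fits were tested on simulated data, not the background handling, scaling, spot averaging or filter. For list counts the brightest tested probe stands for a gene. Named genes were all members, per list up to 4 genes with the largest called, non-overlapping changes, the 2 brightest markers per list, and the 3 nearest probes. Some marker genes under this rule are not reported here but remain in the counts and sums. All 9 members and all 110 list genes matched RefSeq symbols. The members and lists were chosen with earlier results of these data known. Alternatives were normexp (offset 50), quantile, median and detected-probe scaling, the authors' divided values, other filters and a floor, outliers kept, an intensity trend, slide position, a replicate block, the methods' t-test (2-tailed Student's), and each mouse left out. The plots come from python 3.11.15 and matplotlib 3.10.9.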

Additional observations from a re-analysis of the deposited data

How the results depend on the processing

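Fasl passed in 18 of 19 alternatives (1.42 to 3.65). The exception was slide position 1 alone over the probes tested on 6 arrays (3.23), an alternative chosen after seeing the data. The pass with slide position in the fit rests on the same contrast, LPR 1 against the MRL mice. The Fas variant 1 probe passed in none of 21 (-0.63 to -0.20). The Fas variant 2 probe lost its call with normexp (0.18), no filter (1.89), a floor (0.56), slide position in the fit (2.32) or alone (2.32), the replicate block (1.89) and the methods' t-test (1.89), and ranged from 1.56 to 2.38 with a mouse left out. Member probes higher then numbered 1 with normexp, no filter, a floor, slide position in the fit, the replicate block and the methods' t-test, and 1 to 2 with a mouse left out. They numbered 0 with a filter on all 6 arrays, where neither called probe was tested, and 0 at slide position 1 under both filters. Pathway genes higher fell to 5 at slide position 1 under both filters. Pathway genes lower numbered 1 with normexp and an intensity trend, and 0 to 1 with a mouse left out. The cause of these shifts was not tested.

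Changes of sign occurred, among the results recomputed here, only in results that did not pass. With slide position in the fit or position 1 alone (under both filters), Cflar A_55_P2507290 was 0.090, Cflar A_52_P226929 0.10, Bid A_52_P574653 0.027, Bcl2 A_52_P534870 0.18, Bcl2l11 A_52_P348214 -0.38 and Cd247 -0.07. With normexp Bcl2l11 A_52_P348214 was -0.13. Bid A_52_P574653 was 0.020 with quantile and 0.010 with median scaling, and 0.030 with the percentile over detected probes, where Cflar A_52_P226929 was 0.0044. With a mouse left out the changes were, for Cflar A_52_P214612 -0.16 to 0.023, Cflar A_52_P226929 -0.10 to 0.034, Itgam A_55_P1977934 -0.19 to 0.095, Bid A_52_P574653 -0.068 to 0.065, Bcl2l11 A_52_P348214 -0.068 to 0.42, Bcl2l11 A_55_P2504051 -0.10 to 0.025, Cflar A_55_P2507290 -0.18 to 0.079 and Bcl2 A_52_P534870 -0.19 to 0.11. The study's methods name no pairing of mice, so the replicate numbers were not used as pairs. After subtraction of the group means, mice of the same number correlated at 0.115, 0.020 and 0.005. The highest correlations with another number were -0.044, 0.042 and 0.051. With so few mice these values cannot decide whether the numbers pair them. With the replicate block the Fasl change was 3.27 (adjusted p = 0.00271). Dim signal limits Fas variant 2, Fasl in MRL mice, and the dimmer probes of Bcl2l11 and Tnfrsf10b.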
